A study of Mus musculus with 7 samples.

Results

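Skeletal muscle transcripts were measured in RNA from mouse knee cartilage through 40 genes of the sarcomere, of excitation-contraction coupling and of muscle energy supply, taken as the rows of the count table whose gene name matched exactly, of 55401 rows in all. Each of the 40 names matched 1 row. RNA-Seq had been performed on 7 samples, 4 from WT and 3 from Trpc1-/- mice, all male C57BL/6J animals. Every animal in both groups had undergone destabilization of the medial meniscus (DMM), the surgery that induces osteoarthritis, in the right knee at 10 weeks of age, and tissue was collected 2 weeks later, so no group without surgery entered these comparisons. Each sample pooled tissue of 2 to 3 mice by the labels, which the methods give as knees. The Trpc1-/- mice carried a deletion in every tissue, not one limited to cartilage or muscle. The labels name knee articular cartilage as the source, the study's methods add subchondral bone, and neither names muscle. The study's methods state the group sizes the other way round, and the labels were followed.

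The sarcomere is the repeating contractile unit of striated muscle, in which myosin thick filaments pull on actin thin filaments between Z-discs. Calcium released from the sarcoplasmic reticulum binds troponin on the thin filament and starts contraction. Fast and slow muscle fibres build these structures from different paralogs, among them Myh4, Myh1 and Myh2 for the fast myosin heavy chains IIb, IIx and IIa and Myh7 for the slow chain. In muscle tissue the paralogs therefore read out the fibre type.

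The counts on genes summed to between 52142451 and 118254070 per sample, with the lowest total in WT replicate 1. A level of 3 counts, taken as the floor, corresponded to 0.0254 to 0.0575 CPM, that is, counts divided by library size and put on one common scale. The targeted gene Trpc1 lay between 4.33 and 4.83 CPM in WT and between 3.04 and 3.79 CPM in Trpc1-/- samples, and the groups did not overlap (log2 fold change, logFC, -0.44, SE 0.13, adjusted P = 0.407 by the edgeR fit with Benjamini-Hochberg correction). These are counts over the whole gene, which do not separate the deleted stretch from the rest. Cartilage markers such as Acan and Col2a1 were present in all samples, and the summed level of 12 chondrocyte genes was 6938 to 7344 CPM in WT and 3960, 7255 and 4275 CPM in Trpc1-/- replicates 1 to 3. WT replicate 1 stood apart from the other samples in that 10 neutrophil genes summed to 5988 CPM there and to between 13870 and 18720 CPM elsewhere. It also had the lowest erythroid sum and the highest tendon, smooth muscle and osteoblast sums, given below.

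The fast myosin heavy chain genes lie side by side on chromosome 11 and are close copies, which bears on every value given for them. In an alignment of their coding sequences (GENCODE M21, GRCm38), Myh4 and Myh1 were identical at 90.1% of aligned bases, Myh4 and Myh2 at 88.2% and Myh1 and Myh2 at 91.0%. Of all windows of 75 bases, the read length, 9.68% of those in Myh4 transcripts, 15.8% of those in Myh1 and 13.9% of those in Myh2 occurred in another gene's transcripts, mostly those of the other fast or perinatal myosins. Reads from these stretches could have been split between paralogs by the authors' counting. Of the 40 genes, 33 shared no such window with another gene. Myh7 shared 10.6% of its windows with the cardiac gene Myh6, and Myl1 shared 8.08% with a pseudogene. The 75 coding bases in which the 3 fast chains differ most are shown to mark where reads do tell them apart, with capitals at the 31 positions where the 3 sequences do not all share a base. They are coding bases 3832 to 3906 of Myh4 (chr11:67254093-67254498, across exons 27 and 28), 3841 to 3915 of Myh1 (chr11:67215934-67217504, across exons 28 and 29) and 3841 to 3915 of Myh2 (chr11:67190400-67191388, across exons 27 and 28), all on the plus strand.
Myh4: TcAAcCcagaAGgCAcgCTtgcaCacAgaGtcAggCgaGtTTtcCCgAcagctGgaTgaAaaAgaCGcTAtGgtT
Myh1: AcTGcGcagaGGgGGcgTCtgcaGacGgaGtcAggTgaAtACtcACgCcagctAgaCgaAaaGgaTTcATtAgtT
Myh2: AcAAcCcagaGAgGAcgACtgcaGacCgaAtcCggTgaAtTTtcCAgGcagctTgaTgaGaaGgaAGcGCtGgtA

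Most of these genes moved together among the samples, as described below, and the sequence before their transcription starts was also read. RefSeq promoters (GRCm38.p6) were matched for 31 of the 40 genes, in 38 windows of 250 bases. The E-box CANNTG, the sequence type bound by myogenic helix-loop-helix factors, was present on either strand in 84.2% of these windows and in 66.2% of all 32851 windows. The TATA box TATAAA was present in 15.8% and 12.4%, the MEF2 site in 5.26% and 0.508%, and the CArG box, the motif of serum response factor, in 13.2% and 1.47%. For the muscle genes the MEF2 share is only 2 of 38 windows, and the CArG share is 5 of 38 windows from 4 genes. Hits of different motifs were counted separately where they overlapped. Only these exact patterns were counted, so close variants, such as TATATAA in the Ckm window, are not marked. These matches describe the letters only. The windows of Myh4 (fast myosin, chr11:67237562-67237811, plus strand), Ckm (muscle creatine kinase, chr7:19410844-19411093, plus strand) and Tnnt1 (slow troponin T, chr7:4515976-4516225, minus strand) are shown because Myh4 and Ckm followed the common pattern and Tnnt1 did not. Capitals mark E-boxes, TATA boxes on either strand (TATAAA or TTTATA) and, in Myh4, 1 CArG box (CCAAAAATGG).
Myh4: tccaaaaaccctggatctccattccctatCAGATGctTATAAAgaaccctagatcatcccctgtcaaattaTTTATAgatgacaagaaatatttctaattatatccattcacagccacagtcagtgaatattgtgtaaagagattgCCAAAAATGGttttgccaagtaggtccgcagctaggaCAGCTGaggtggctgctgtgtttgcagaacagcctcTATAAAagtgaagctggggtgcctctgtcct
Ckm: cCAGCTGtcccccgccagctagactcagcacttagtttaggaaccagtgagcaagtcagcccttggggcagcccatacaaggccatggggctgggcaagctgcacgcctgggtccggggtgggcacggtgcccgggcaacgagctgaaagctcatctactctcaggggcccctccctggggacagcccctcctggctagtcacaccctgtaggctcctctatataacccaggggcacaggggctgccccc
Tnnt1: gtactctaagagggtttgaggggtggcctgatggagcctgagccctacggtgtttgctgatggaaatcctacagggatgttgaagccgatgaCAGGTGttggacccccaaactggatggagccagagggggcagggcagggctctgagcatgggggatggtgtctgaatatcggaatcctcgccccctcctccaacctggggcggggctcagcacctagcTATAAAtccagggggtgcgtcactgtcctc

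Muscle transcripts were detected in every pool, and their amount varied far more between pools than that of most genes. The 40 genes took 0.387% of all counts in WT replicate 1 (95% Wilson interval 0.385 to 0.389%), 0.0809% in WT replicate 2, 0.0565% in WT replicate 3 and 0.0256% in WT replicate 4 (0.0253 to 0.0260%). In Trpc1-/- replicates 1 to 3 they took 0.101%, 0.206% and 0.258%. These intervals cover counting error only. WT samples thus held both the highest and the lowest share, and all 3 Trpc1-/- samples fell between them. In bulk tissue, fewer muscle cells in a pool and less muscle RNA per cell cannot be told apart. Of the 40 genes, 34 exceeded 1 CPM in at least 2 samples, the filter that left 16429 genes to test, and the 6 below it were all slow-fibre genes (Myh7, Myl2, Myl3, Tnni1, Tnnc1 and Casq2).

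For each gene, the spread was expressed as the highest over the lowest CPM of the 7 samples, normalized by edgeR's trimmed mean of M values (TMM), the scale of every CPM value below. Its median over the 34 genes was 19.9-fold, against 1.5-fold over all 16429 tested genes, whose 99th percentile was 12.0-fold. A spread above 10-fold was found in 28 of the 34 genes and in 1.21% of all tested genes. WT replicate 1 had the highest level of 32 genes and WT replicate 4 the lowest level of 33. In 24 genes the samples stood in one and the same order, from WT replicate 1 through Trpc1-/- replicates 3, 2 and 1 to WT replicates 2, 3 and 4. Without WT replicate 1 the median spread was 12.3-fold, and without WT replicate 4 it was 7.06-fold.

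**Figure D1:**
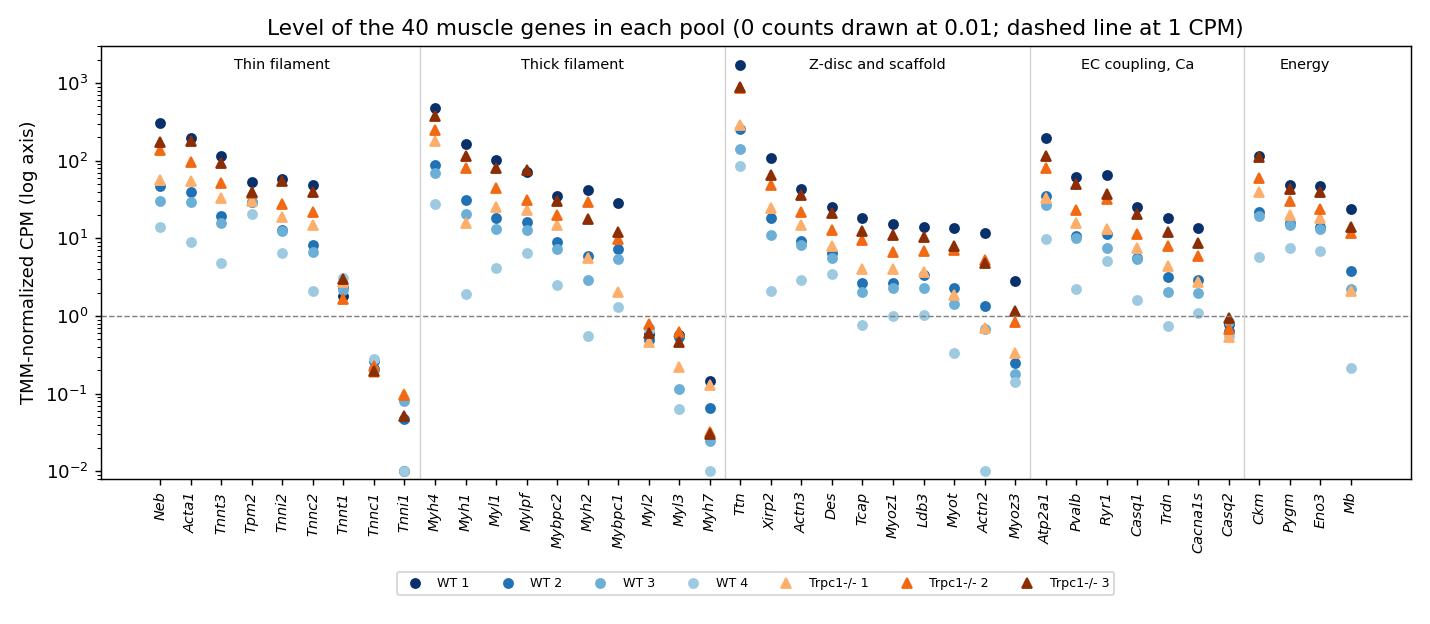
TMM-normalized CPM of the 40 muscle genes (x axis, by role and mean level) on a log axis, with circles for the 4 WT and triangles for the 3 Trpc1-/- pools. In most columns WT replicate 1 sits at the top and WT replicate 4 at the bottom with all Trpc1-/- pools between them, whereas Tnnt1 and the 6 genes under the filter stay low and close together or near 0.

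**Figure D2:**
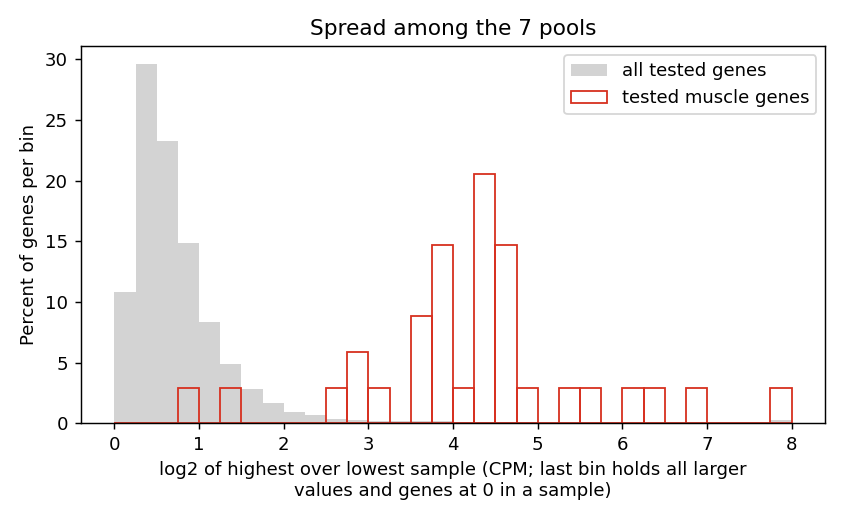
Distribution of the log2 ratio of the highest to the lowest of the 7 pools (x axis, CPM), as the percent of genes in each bin, for all 16429 tested genes in grey and the 34 tested muscle genes in red outline. The medians are 1.5-fold and 19.9-fold, and the 2 muscle genes at the left are Tnnt1 and Tpm2.

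Of 9 thin filament genes, 7 were tested. Neb, which encodes the giant thin filament protein nebulin (chr2:52136647-52378474), had the highest mean CPM of this group, with 304, 47.7, 30.3 and 14.0 CPM in WT replicates 1 to 4 and 56.1, 137 and 175 CPM in Trpc1-/- replicates 1 to 3. Its Trpc1-/- values all lay above those of WT replicates 2 to 4 and below that of WT replicate 1. The troponin complex, which makes the thin filament responsive to calcium, has fast and slow forms of each subunit, and the fast forms are given first. Tnnt3, the fast troponin T that anchors the complex to tropomyosin, had 115, 19.5, 15.9 and 4.81 CPM in WT and 32.6, 50.9 and 93.3 CPM in Trpc1-/- samples. Tnni2, the fast inhibitory subunit, had 58.2, 12.8, 12.3 and 6.41 CPM in WT and 18.7, 27.9 and 54.6 CPM in Trpc1-/- samples. Tnnc2, the fast calcium-binding subunit, had 48.4, 8.27, 6.63 and 2.11 CPM in WT and 14.8, 22.1 and 39.8 CPM in Trpc1-/- samples. In all 3 the order of the samples was that of Neb. Per kilobase of exon, skeletal actin (Acta1) had the highest mean level of all 40 genes, at 56.1 CPM per kb over the 7 samples. The exception in this group, singled out after its values were seen, was the tropomyosin gene Tpm2, which lies along actin in fast and slow fibres alike and varied 2.63-fold, between 20.3 and 53.4 CPM.

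The slow troponins gave another picture. Tnnt1, the slow troponin T, was the 1 gene of the 7-gene slow-fibre list that passed the filter, a list that does not hold the slow myosin-binding protein Mybpc1 described below. It had 1.81, 2.35, 2.17 and 3.09 CPM in WT replicates 1 to 4 and 2.73, 1.66 and 3.00 CPM in Trpc1-/- replicates 1 to 3. Its highest value was in WT replicate 4, the pool that was lowest for nearly every other gene, and its groups overlapped (logFC 0.06, SE 0.26, adjusted P = 0.936 by edgeR). Tnni1, the slow inhibitory subunit, had 0, 5, 10 and 0 counts in WT and 12, 9 and 5 counts in Trpc1-/- samples. Tnnc1, the troponin C of slow and cardiac muscle, had 10, 28, 25 and 22 counts in WT and 23, 21 and 19 counts in Trpc1-/- samples, which is 0.188 to 0.280 CPM. These levels did not move with those of the fast subunits.

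The thick filament group held 10 genes, of which 7 were tested. Myh4, the motor of the fastest (IIb) fibres, had 477, 89.0, 69.2 and 28.1 CPM in WT replicates 1 to 4 and 178, 248 and 377 CPM in Trpc1-/- replicates 1 to 3. The groups overlapped only through WT replicate 1, and the spread over the 7 samples was 17.0-fold. Both fast light chains, the small subunits bound at the neck of the myosin head, showed the same layout. Mylpf, the regulatory chain, had 70.7, 16.3, 12.8 and 6.4 CPM in WT and 23.3, 31.2 and 75.6 CPM in Trpc1-/- samples, with the highest value in Trpc1-/- replicate 3. Myl1, the essential chain, had 102, 18.1, 13.4 and 4.19 CPM in WT and 25.1, 44.3 and 79.8 CPM in Trpc1-/- samples. Their slow counterparts were all below the filter. Myh7, the slow and cardiac heavy chain, had 7, 7, 3 and 0 counts in WT and 16, 3 and 3 counts in Trpc1-/- samples. Myl2, the slow and ventricular regulatory chain, lay between 0.457 and 0.786 CPM, and Myl3, the matching essential chain, between 0.0636 and 0.625 CPM, without separation of the groups.

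Myosin-binding protein C, which cross-links thick filaments, was the pair with the highest mean slow share, although in WT replicate 4 the share of Tnnt1 was higher. The fast form Mybpc2 had 35.2, 9.02, 7.32 and 2.52 CPM in WT and 14.98, 20.03 and 30.7 CPM in Trpc1-/- samples. The slow form Mybpc1 had 28.2, 7.28, 5.37 and 1.32 CPM in WT and 2.02, 9.92 and 12.0 CPM in Trpc1-/- samples, so that Trpc1-/- replicate 1 lay among the lowest samples instead of in the middle. It spread 21.3-fold, highest in WT replicate 1 and lowest in WT replicate 4 like the fast genes. Its share is called slow after the gene's name and was not tested as a measure of slow fibres. Of the 34 tested genes, Mybpc1 and the Z-disc gene Myoz3 were the 2 with a lower fitted mean in Trpc1-/- samples (logFC -0.38, SE 0.95, adjusted P = 0.896 and logFC -0.03, SE 1.09, adjusted P = 0.994 by edgeR).

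All 10 Z-disc and scaffold genes were tested. Ttn encodes titin, the giant elastic protein that runs from the Z-disc to the middle of the sarcomere (chr2:76703980-76982547), and its long transcript took between 26.2% and 40.8% of the counts on the 40 genes. It had 1687, 254, 141 and 86.5 CPM in WT replicates 1 to 4 and 284, 859 and 896 CPM in Trpc1-/- replicates 1 to 3. Again WT replicate 1 was far above and the other WT replicates below every Trpc1-/- sample. Without Ttn, the sum of the other 39 genes still varied 16.2-fold between samples. The other 9 genes of the group (the actin cross-linkers Actn2 and Actn3, the Z-disc proteins Myoz1, Myoz3, Tcap, Ldb3 and Myot, the intermediate filament protein Des and the actin-binding repeat protein Xirp2) were all highest in WT replicate 1 and lowest in WT replicate 4, with spreads of 7.35-fold for Des and 51.4-fold for Xirp2. Actn2 had 0 counts in WT replicate 4 and 11.8 CPM in WT replicate 1, at least 297-fold higher against the floor of 3 counts per library.

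Among 7 genes of excitation-contraction coupling and calcium handling, 6 were tested, and all 6 were highest in WT replicate 1 and lowest in WT replicate 4. Atp2a1, the fast-fibre pump that returns calcium to the sarcoplasmic reticulum, had 194, 35.5, 26.9 and 9.73 CPM in WT and 33.0, 80.3 and 117 CPM in Trpc1-/- samples. Here Trpc1-/- replicate 1 lay below WT replicate 2, so the groups overlapped also without WT replicate 1. Casq1, the calcium-binding protein inside the fast reticulum, had 25.4, 5.67, 5.35 and 1.60 CPM in WT and 7.59, 11.4 and 20.9 CPM in Trpc1-/- samples. Its slow and cardiac paralog Casq2 stayed between 0.539 and 0.931 CPM in all 7 samples, a 1.73-fold range. The calcium release channel Ryr1, its voltage sensor Cacna1s, the reticulum protein Trdn and the calcium buffer Pvalb spread 12.8-, 12.1-, 24.7- and 27.7-fold.

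The 4 genes of energy and oxygen supply were all tested and had the same 2 extreme samples. Ckm, muscle creatine kinase, which regenerates ATP at the myofibril, had 116, 22.0, 19.4 and 5.83 CPM in WT and 39.0, 60.7 and 112 CPM in Trpc1-/- samples. The glycolytic enzyme Eno3 and the glycogen phosphorylase Pygm spread less, 6.87-fold and 6.47-fold. The oxygen store myoglobin (Mb) spread 110-fold, from 0.216 CPM in WT replicate 4 to 23.7 CPM in WT replicate 1.

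The fast and the slow paralogs were then set against each other. The 15 fast-fibre genes summed to 1456, 274, 214 and 74.6 CPM in WT replicates 1 to 4 (mean 505 ± 640 SD, n = 4) and to 404, 698 and 1119 CPM in Trpc1-/- replicates 1 to 3 (mean 741 ± 359 SD, n = 3). The 7 slow-fibre genes summed to 4.13, 4.39, 4.12 and 4.66 CPM in WT (4.32 ± 0.254 SD, n = 4) and to 4.37, 4.12 and 5.27 CPM in Trpc1-/- samples (4.58 ± 0.605 SD, n = 3). The fast sum varied 19.5-fold between samples and the slow sum 1.28-fold, and in both lists the groups overlapped. The largest part of the slow sum was Tnnt1, the only gene of that list above the filter, which varied 1.86-fold. The other 6 genes were below the filter, and some of them, such as Myl3, varied more than the sum. Which cells the transcripts of the slow list came from was not tested. The steadiness of the slow sum also depended on leaving Mybpc1 out of the list. With Mybpc1 added, a choice made after the values were seen, it was 32.3, 11.7, 9.49 and 5.98 CPM in WT and 6.39, 14.0 and 17.3 CPM in Trpc1-/- samples, a 5.4-fold range. The ratio of the Trpc1-/- to the WT mean was 1.47 for the fast sum and 1.06 for the slow sum, and without WT replicate 1 it was 3.95 and 1.04.

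**Figure D3:**
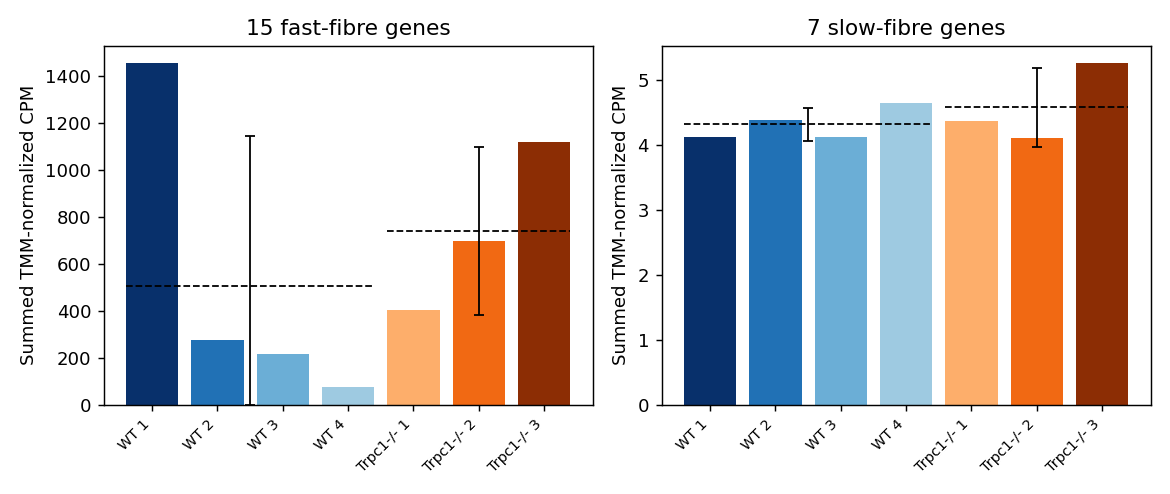
Summed TMM-normalized CPM of the 15 fast-fibre genes (left) and the 7 slow-fibre genes (right) in each pool, with dashed lines for the group means and error bars of 1 SD (n = 4 WT, n = 3 Trpc1-/-), the lower WT bar on the left ending at 0. The fast sum runs from 74.6 to 1456 CPM, while the slow sum, which does not include Mybpc1, stays between 4.12 and 5.27 CPM.

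Within each pair of paralogs the slow gene was expressed as a percentage of the slow plus the fast gene, from CPM per kb of exon. The median over 8 pairs was 0.507%, 2.67%, 2.58% and 7.29% in WT replicates 1 to 4 and 1.01%, 1.38% and 0.507% in Trpc1-/- replicates 1 to 3 (mean 3.26 ± 2.86 SD, n = 4, and 0.966 ± 0.439 SD, n = 3). It was highest in the pool with the least fast transcript and lowest in the pools with the most. Because the sum of the slow-fibre list hardly varied, such a share falls by construction as the fast level rises. It therefore gives no reading of fibre type apart from the amount of fast transcript. Over 7 pairs, without Mybpc1 and Mybpc2, the median was 0.453%, 2.4%, 2.31% and 5.33% in WT and 0.963%, 1.35% and 0.433% in Trpc1-/- samples. Myh7 was at most 0.0519% of Myh7 plus Myh4 in any sample. Tnnt1 reached 31.6% of Tnnt1 plus Tnnt3 in WT replicate 4 and was 1.12% in WT replicate 1. The pair Mybpc1 and Mybpc2 differed from the others, since the slow gene made up 39.0%, 39.2%, 36.9% and 29.5% in WT and 9.70%, 28.3% and 23.9% in Trpc1-/- samples. For this pair every Trpc1-/- sample was below every WT sample. It was 1 of 8 pairs, was picked out after the values were seen, and was not tested.

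Relative to Myh4 in the same sample, most genes were far steadier than their levels. The ratio to Myh4 varied less than 3-fold over the 7 samples for 24 of 33 tested genes, with a median of 1.81-fold over the fast-fibre genes. Among the myosin heavy chains, by CPM per kb, Myh4 made up 70.4%, 71.1%, 74.9% and 91.3% of the summed signal of 6 chains in WT replicates 1 to 4 and 88.9%, 70.2% and 74.3% in Trpc1-/- replicates 1 to 3. Myh1, the IIx chain, made up 23.1%, 23.6%, 21.2% and 5.84% in WT and 7.53%, 21.5% and 21.5% in Trpc1-/- samples. WT replicate 4 and Trpc1-/- replicate 1 thus differed from the other 5 samples, with less IIx relative to IIb myosin, and these 2 samples belong to different groups. Myh2, the IIa chain of oxidative fast fibres, made up between 1.5% and 7.05%, and the slow chain Myh7 at most 0.0457%. Mb, another gene of oxidative fibres, was also lowest relative to Myh4 in WT replicate 4, where it had 17 counts, and in Trpc1-/- replicate 1. Its ratio varied 6.46-fold. Slow-fibre genes did not share this layout. Relative to Myh4, Tnnt1, Myl2, Tnnc1 and Casq2 were highest in WT replicate 4, while Myh7 and Tnni1 had 0 counts there. Mybpc1 was lowest relative to Myh4 in Trpc1-/- replicate 1, but in WT replicate 4 it lay above Trpc1-/- replicates 2 and 3. Mean shares did not separate the genotypes, with 76.9 ± 9.80% (SD, n = 4) and 77.8 ± 9.85% (SD, n = 3) for Myh4. This pattern was noticed after the values were seen.

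**Figure D4:**
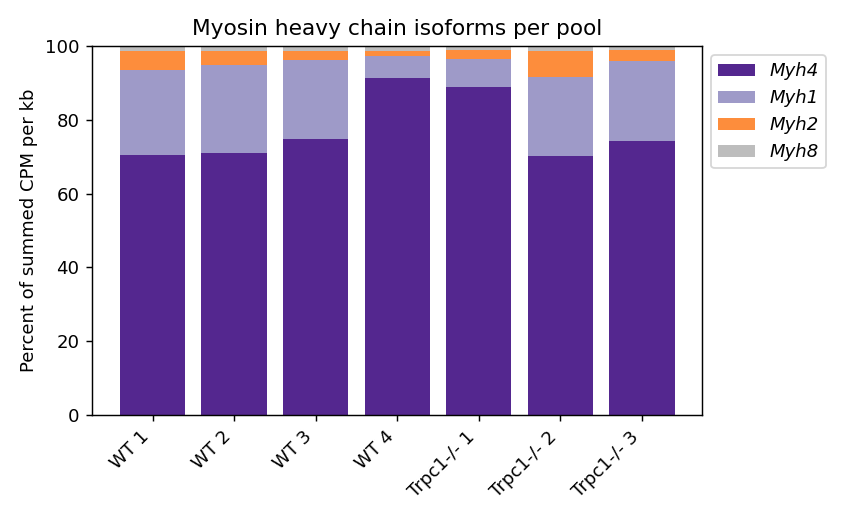
Share of each myosin heavy chain isoform in the summed CPM per kb of 6 chains, per pool (y axis, percent), with Myh7 and Myh3 too low to be seen. Myh4 makes up 91.3% in WT replicate 4 and 88.9% in Trpc1-/- replicate 1 and between 70.2% and 74.9% in the other 5 pools, and Myh1 is correspondingly lower in those 2.

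To ask whether muscle transcripts differed between the genotypes, edgeR was fitted on all 16429 genes. None of the 34 genes was called at an adjusted P under 0.05, as was the case for all tested genes (0 called), and none had an unadjusted P under 0.05, against 10.0% of all tested genes. DESeq2 also called none, against 1.79% of all tested genes, and limma-voom none, against 0.00609%. For 0 of 34 genes did the groups fail to overlap, against 13.6% of all tested genes. The fitted mean was higher in Trpc1-/- samples for 32 of 34 genes, against 48.1% of all tested genes, with a median logFC of 0.46 against -0.01. The genes share their samples and move together, so this count is not that many separate observations. The standard errors were large, between 0.26 and 1.43 on the log2 scale with a median of 0.92, and the lowest adjusted P was 0.732. Myh4 had a logFC of 0.69 (SE 0.86, adjusted P = 0.772), Ttn of 0.33 (SE 1.00, adjusted P = 0.916) and Ckm, with the highest logFC of the 34, of 0.80 (SE 0.89, adjusted P = 0.746), all by edgeR. By role, the median logFC was 0.60 over 7 thin filament genes, 0.54 over 7 thick filament genes, 0.43 over 10 Z-disc and scaffold genes, 0.37 over 6 coupling genes and 0.49 over 4 energy genes.

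The direction and the size of the difference both depended on which samples entered the fit. With each pool left out in turn by edgeR, 21 to 33 genes were higher in Trpc1-/- samples. The smallest median logFC of these fits, 0.048 with 24 of 33 genes higher, came without Trpc1-/- replicate 3. The labels carry mouse numbers in the 1300s for WT replicates 1 and 2 and all 3 Trpc1-/- samples, and in the 1700s for WT replicates 3 and 4. Within the 1300s alone, 3 of 34 genes were higher in Trpc1-/- samples and the median logFC was -0.28. The WT samples there are WT replicate 1, with 4252 CPM summed over the 40 genes, and WT replicate 2, with 764 CPM. The Trpc1-/- samples had 980, 2105 and 2815 CPM, below the first and above the second. An effect of the series apart from WT replicate 1 was not tested. With the series as a covariate the count of higher genes was also 3. The 1700s hold WT samples only and give no comparison. Leaving out WT replicate 1 instead raised the median logFC to 1.91 over the 33 genes then tested. This pool held the highest level of 32 of the 34 genes, so its removal by itself raises their difference and lowers their spread in WT. The counts without it therefore follow largely from which pool was left out, and the share over all genes is no neutral background for them. Without it edgeR called 0 of 33, against 0.320% of 16242 genes, with 29 of 33 at an unadjusted P under 0.05, against 16.9%. DESeq2, a combination tried after the data had been seen, then called 15 of 33, or 45.5%, against 5.49% of all tested genes. In the same fit it called 7 of 9 adipocyte genes (77.8%) and 11 of 12 erythroid genes (91.7%), lists in which every tested gene was higher in Trpc1-/- samples. It also called 5 of 11 osteoblast and osteocyte genes (45.5%) and 4 of 12 chondrocyte genes (33.3%), lists in which every tested gene was lower. Of 10 neutrophil genes it called 0. In 24 of the 33 muscle genes every Trpc1-/- sample was then above every remaining WT sample, against 11.5% of all tested genes. Myh4 had the lowest adjusted P without this sample (logFC 2.1, SE 0.43, adjusted P = 0.110 by edgeR and 0.00326 by DESeq2), and over all alternatives its adjusted P reached 0.964. The logFC of Tnnt1 was -0.04 (SE 0.25) without WT replicate 1, against 0.06 with all samples.

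**Figure D5:**
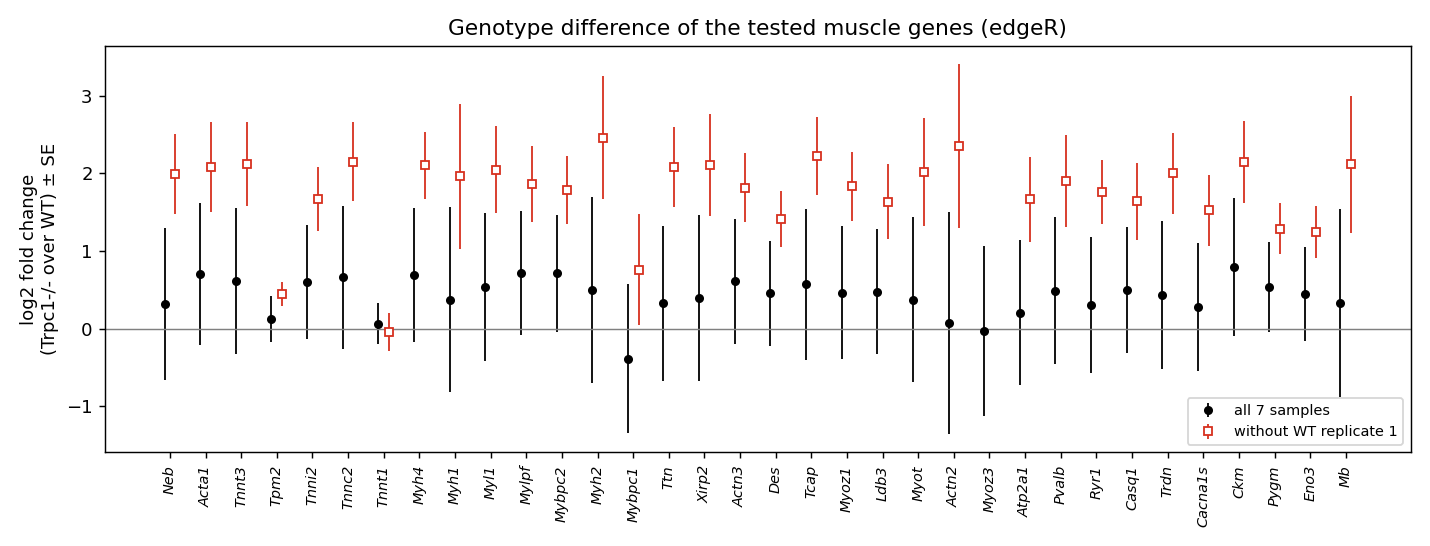
Log2 fold change of Trpc1-/- over WT (y axis) with its SE from edgeR for the 34 tested muscle genes, for all 7 samples (black circles) and without WT replicate 1 (red squares, 33 genes). With all samples the median is 0.46 and no gene is called, and without WT replicate 1 the median is 1.91 with none called by edgeR, while within the mouse numbers of the 1300s the median is -0.28.

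Other muscle genes, from 4 lists with 79 genes and 59 tested, spread less, with a median of 6.27-fold, and 39 of the 59 had a higher fitted mean in Trpc1-/- samples (median logFC 0.17). Neither edgeR nor DESeq2 called any, and 1, Megf10, a receptor of muscle satellite cells, had an unadjusted P under 0.05 (logFC -0.31, SE 0.11, adjusted P = 0.450 by edgeR). Of 27 further sarcomere and scaffold genes, 21 were tested, with a median spread of 11.3-fold. The 2 with the highest CPM were Myom1, an M-band protein, with 35.8 to 56.5 CPM, and Cmya5, a large muscle scaffold protein, with 90.6, 27.2, 20.4 and 15.2 CPM in WT and 28.3, 45.1 and 55.4 CPM in Trpc1-/- samples. Of 22 coupling and membrane genes, 17 were tested, led by Atp2a2 (124 to 133 CPM), a calcium pump that most cells use, and Cacna2d1 (22.6 to 45.2 CPM), a calcium channel subunit. Of 15 energy genes, all 15 were tested, led by Amd1 (69.3 to 95.8 CPM), an enzyme of polyamine synthesis, and Pfkm (21.2 to 53.3 CPM), the muscle phosphofructokinase. Of 8 cardiac genes none was tested, and their sum was 1.53 to 2.91 CPM.

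Of 15 genes of myogenesis and regeneration 6 were tested and 9 were below the filter. Those tested were led by Mef2c (126 to 159 CPM), a transcription factor that bone and cartilage cells also express, and Megf10 (12.9 to 19.5 CPM). Pax7, the satellite cell factor, had at most 13 counts in any sample, the differentiation factor Myog at most 11, and Myf5 had 0 counts in all 7, which allows up to 0.0575 CPM in the shallowest library. Embryonic myosin (Myh3) had 18, 14, 5 and 0 counts in WT and 5, 25 and 23 counts in Trpc1-/- samples. Perinatal myosin (Myh8), whose gene lies beside Myh4 and shares read-length stretches with it, had 17.2, 2.88, 2.21 and 0.802 CPM in WT and 4.49, 8.26 and 11.8 CPM in Trpc1-/- samples. Its share of the summed heavy chains stayed between 1.15% and 1.33%.

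Markers of other tissues moved with these samples to differing degrees. All 9 adipocyte genes were tested and none was at 0, and their sum lay between 322 and 484 CPM in WT and between 453 and 548 CPM in Trpc1-/- samples, lowest in WT replicate 4 as for the muscle genes. The 10 tendon and ligament genes summed to 24070, 19360, 17430 and 14120 CPM in WT replicates 1 to 4 and to 11420 to 19260 CPM in Trpc1-/- samples. Of these 10 genes 8 were highest in WT replicate 1, 2 were lowest in WT replicate 4, and 1 had a higher fitted mean in Trpc1-/- samples. The 11 smooth muscle genes, among them the members Des and Casq2, summed to 217, 158, 149 and 133 CPM in WT replicates 1 to 4 and to 139 to 147 CPM in Trpc1-/- samples. All 8 smooth muscle genes that were tested were highest in WT replicate 1. The 8 nerve and Schwann cell genes stayed between 107 and 127 CPM. Of the 13 erythroid genes, 12 were measured and tested, and their sum was 16030 to 29280 CPM in WT and 33990 to 46170 CPM in Trpc1-/- samples, without overlap. The 11 osteoblast and osteocyte genes summed to 13950, 10270, 9077 and 7853 CPM in WT replicates 1 to 4 and to 6145 to 10550 CPM in Trpc1-/- samples. In WT, the adipocyte, tendon, smooth muscle and osteoblast sums all fell from replicate 1 to replicate 4, the order of the muscle genes, though over narrower ranges. In none of these lists did the Trpc1-/- samples stand in the order of the muscle genes. The share of these tissues in the muscle values was not tested.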

How the data were processed

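Total RNA was depleted of ribosomal RNA, and stranded libraries were sequenced by the authors. Per the study's methods and the submitters' processing notes, adapters were trimmed with cutadapt 2.5, reads were aligned to GRCm38 with HISAT2 2.1.0, and coverage was estimated with StringTie 2.0.3. The authors deposited estimated counts per gene derived from that coverage, as whole numbers that are not normalized, so rounding left them unchanged. Reads mapping to several genes were assigned before deposit, which could affect paralogs.

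In R 4.3.3, genes above 1 CPM in at least 2 samples (16429 of 55401) were scaled by TMM and compared between genotypes in all 7 samples with edgeR 4.0.16 (glmQLFit and glmQLFTest), without covariates and with Benjamini-Hochberg adjustment over all tested genes at 0.05. The SE of a logFC was taken from its F statistic. Alternatives were DESeq2 1.42.0, voom in limma 3.58.1, other normalizations and filters, a replicate block, the mouse-number series, and each sample left out. DESeq2 gave no adjusted P for 2 genes (Actn2 and Ttn). Exon lengths came from GENCODE M21. The edgeR fit was tested on simulated counts. Total counts were 52142451 to 118254070 per sample, and a floor of 3 counts was used.

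Members and lists were chosen with earlier results of these data known. Values per sample are given for both genes of each paralog pair and the gene with the highest mean CPM of each role, and for other muscle lists the 2 highest and regeneration markers. Other genes were singled out after their values were seen. Replicates are pools that the labels call biological replicates. The labels number replicates 1 to 3 in both groups, but same-numbered samples come from different animals, and their deviations from the group means correlated at -0.348, -0.205 and -0.0439, so the numbers were not taken as pairs. Protein sequences were not used here.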

Additional observations from a re-analysis of the deposited data

Results flagged for a closer look

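WT replicate 1 stood far above the other 3 WT samples in 13 of 17 values examined, with its gap to the next sample taking up to 0.896 of the whole range of the 4, above Dixon's 95% critical value for 4 samples. Chance flags about 1 in 20 such groups if the values are normally distributed, and these values share their samples and move together. The rule was applied to CPM without a log transform and was not applied on a log scale, so the flags hold for the CPM scale only. In WT replicate 1 the levels were 477 CPM for Myh4, 70.7 CPM for Mylpf, 102 CPM for Myl1, 115 CPM for Tnnt3, 58.2 CPM for Tnni2, 48.4 CPM for Tnnc2, 25.4 CPM for Casq1, 304 CPM for Neb, 1690 CPM for Ttn, 194 CPM for Atp2a1 and 116 CPM for Ckm. The sums there were 1460 CPM for the fast-fibre genes and 4250 CPM for all 40 genes. WT replicate 1 also had the lowest total count, the lowest neutrophil sum and the lowest erythroid sum (16030 CPM, against 24260 to 46170 CPM elsewhere). It had the highest osteoblast and osteocyte sum (13950 CPM, against at most 10550 CPM) and the highest tendon and ligament sum (24070 CPM, against at most 19360 CPM). Its smooth muscle sum was the highest as well (217 CPM, against at most 158 CPM). The part of any of these in the muscle values was not tested.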

How the results depend on the processing

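DESeq2, limma-voom, other size factors, upper quartile scaling, unscaled totals and both other filters called 0 muscle genes, and between 31 and 38 genes were higher in Trpc1-/- samples, of 34 to 40 tested. The replicate block, fitted on replicates 1 to 3 and so without WT replicate 4, called 0, with 33 of 34 higher and a median logFC of 0.681. It changed no other call. With the mouse-number series as a covariate, or within the 1300s alone, 3 and 3 of 34 genes were higher. The WT samples of the 1300s include WT replicate 1. Under the covariate and within the 1300s the logFC turned negative for Myh4 (-0.0798 and -0.0816), Myl1 (-0.272 and -0.275), Tnnt3 (-0.189 and -0.192), Tnni2 (-0.0657 and -0.0685), Tnnc2 (-0.138 and -0.141), Casq1 (-0.213 and -0.215), Mybpc2 (-0.00252 and -0.00485), Neb (-0.517 and -0.519), Ttn (-0.513 and -0.515) and Atp2a1 (-0.583 and -0.585). The logFC of Tnnt1 was -0.00674 with library totals only, and that of Mybpc1 was 0.0794 by limma-voom.

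With each sample left out in turn, muscle genes called ranged from 0 to 15, where 15 was DESeq2 without WT replicate 1 and edgeR called 0 each time. DESeq2 was fitted for this omission only. Genes higher in Trpc1-/- samples ranged from 21 (without WT replicate 4) to 33, the median logFC from 0.048 (without Trpc1-/- replicate 3) to 1.91 with edgeR (without WT replicate 1, and 1.93 with DESeq2), and the median spread from 7.06 to 19.9. The log2 ratio of group means ranged from 0.087 to 1.93 for all 40 genes, from 0.127 to 1.98 for the fast sum and from -0.0277 to 0.156 for the slow sum, which was -0.241 with Mybpc1 added. The slow share in plain CPM differed by -4.47 to -1.19 percentage points. The logFC ranged from -0.0995 to 0.275 for Tnnt1, from -0.811 to 0.761 for Mybpc1, from -0.0524 to 1.99 for Neb, from -0.0313 to 2.08 for Ttn and from -0.231 to 1.67 for Atp2a1, and with DESeq2 without WT replicate 1 it was -0.0332 for Tnnt1, 0.776 for Mybpc1 and 2.00 for Neb. The causes were not tested. The median SE of 0.92 exceeded the median logFC of 0.461. Counts were low for several genes in some pools, with 0 counts for Actn2, 11 for Myoz3 and 17 for Mb in WT replicate 4.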
